A study of Homo sapiens with 3 samples.

Results

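The 9 genes PHOX2A, HAND1, HAND2, GATA2, GATA3, ISL1, TBX2, TFAP2B and LMO1 encode transcription factors of the core circuit that holds neuroblastoma cells in a noradrenergic state. They were picked by name from 32738 gene rows, and their RNA was read in Kelly cells. This established human line grew from a neuroblastoma and carries MYCN amplification and an activating mutation of the receptor kinase ALK. It was measured in 3 states of response to TAE684, an inhibitor of the ALK kinase. Sensitive cells were cultured with DMSO, the solvent of the drug. Intermediate resistant cells received 500 nM of TAE684, fully resistant cells 1 µM, and all were in RPMI medium with serum. Each state was 1 library of 1 cell line, so no difference below has a replicate check, no test was run, and resistance, drug dose and differences between cultures cannot be told apart. Whether a resistant culture grew from 1 clone is not given in the sources used here.

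Droplet RNA sequencing tags each captured molecule with a unique molecular identifier (UMI), and UMIs are counted per gene and cell. There were 5415 sensitive, 6288 intermediate resistant and 6331 fully resistant cells, with 95119772, 102449567 and 106163582 UMIs, and a median of 15660.5 to 16014 UMIs per cell. Pairs of libraries shared 38 to 62 cell barcodes. Levels are UMIs per 1000000 UMIs of the library's cells (CPM), with exact Poisson 95% intervals that cover counting error only. Because UMIs are counted once per molecule at the 3' end, CPM was not divided by gene length, although capture can differ between genes. All 8 neuroblast markers examined, among them DBH, TH and CHGA, were at a CPM of at least 5 in each library. Of 6 fibroblast markers 1, 1 and 2 reached that level, and of 5 Schwann cell markers 0, 0 and 1. Their summed CPM was 2.94, 2.84 and 86.7, and in fully resistant cells SOX10 had 2 UMIs and S100B 6. The part of these genes in the results was not tested. No endothelial, immune or epithelial marker reached it (2, 4 and 4 genes examined).

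Sympathetic neuroblasts and the tumours that arise from them share a set of factors that bind their own and each other's regulatory regions and the genes of catecholamine synthesis. PHOX2A and ISL1 are homeodomain factors, HAND1 and HAND2 are basic helix-loop-helix factors that pair with E proteins, GATA2 and GATA3 are zinc finger factors, TBX2 belongs to the T-box family, TFAP2B to the AP-2 family, and LMO1 is a LIM-only cofactor that bridges DNA-binding proteins. When this circuit is lost, neuroblastoma cells can adopt a mesenchymal state governed by other factors such as PRRX1.

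In the fully resistant library the circuit's RNA was lower as a whole, and unevenly so. GATA2 and HAND1, which led the sensitive library, were lowest relative to that library, GATA3, TBX2 and LMO1 were also at least 2-fold lower, PHOX2A, HAND2 and TFAP2B were 1.16- to 1.37-fold lower, and ISL1 was slightly higher. Intermediate resistant cells did not lie between the others for most factors, since 5 of the 9 had their highest level there. Summed over the 9 genes, the circuit had a CPM of 2277 (2268 to 2287) in the sensitive, 2360 (2350.2 to 2369) in the intermediate resistant and 1170.1 (1164 to 1177) in the fully resistant library.

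A gene counted as measured where the higher of 2 libraries reached a CPM of 5, and as different at a ratio of at least 2. By this rule 5 of 9 factors were lower and 0 higher in fully resistant over sensitive cells, where 7.33% of 9800 measured genes were lower, 6.73% higher and 14.1% different in either direction. Between fully and intermediate resistant, 5 of 9 were again lower and 0 higher, against 3.91% of 9614 genes lower, 5.71% higher and 9.62% different. The 5 were GATA2, GATA3, HAND1, LMO1 and TFAP2B in this pair of libraries, with TBX2 in place of TFAP2B against the sensitive library. Between intermediate resistant and sensitive, 0 of 9 differed at least 2-fold in either direction, against 2.38% of 9529 genes higher, 4.81% lower and 7.19% different. The median log2 ratio of the 9 factors was -1.02, -1.13 and 0.17 in these comparisons, beside 0.08, 0.15 and -0.08 over all measured genes. The first and the third comparison share the sensitive library, and the first and the second share the fully resistant one. TMM scaling, which places most genes near no difference, moved the median of all genes between the resistant libraries from 0.15 to 0.00 and the share of higher genes among those called from 59.4% to 47.0%, yet no member's direction depended on the scaling in any of the 3 comparisons.

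**Figure D1:**
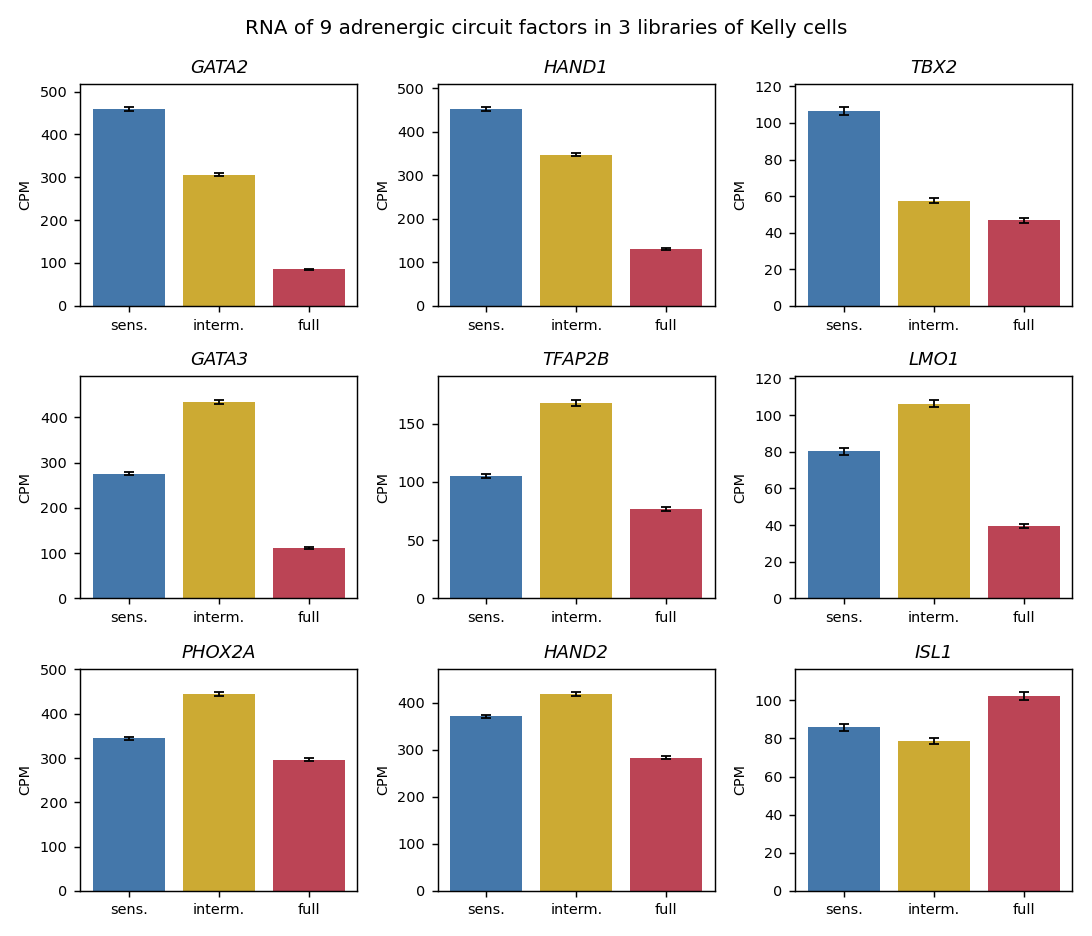
Level of each factor (vertical axis, CPM, linear and starting at 0) in the sensitive (sens.), intermediate resistant (interm.) and fully resistant (full) library, with exact Poisson 95% intervals as error bars. GATA2, HAND1 and TBX2 descend from left to right, GATA3, TFAP2B, LMO1, PHOX2A and HAND2 are highest in the middle, and ISL1 is highest in the fully resistant library.

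The GATA factors differed from each other. GATA2 (ENSG00000179348), a zinc finger factor of blood and sympathetic progenitors, had a CPM of 459 (454 to 463) in the sensitive, 306 (303 to 309.7) in the intermediate resistant and 85.0 (83.2 to 86.8) in the fully resistant library. It thus descended at each step, and fully resistant cells had 5.40-fold less of it than sensitive cells (5.27 to 5.52), a log2 ratio of -2.43 below which lay 1.69% of all measured genes. GATA3 (ENSG00000107485), which serves noradrenergic differentiation, had a CPM of 275 (272 to 278), 435 (431 to 439) and 111 (109 to 113) in the same order. It was 1.58-fold higher (1.56 to 1.60) in the intermediate resistant than in the sensitive library and 3.92-fold lower (3.84 to 4.0) in the fully than in the intermediate resistant one. GATA3-AS1, a noncoding RNA beside GATA3 on the other strand, had a CPM of 38.4, 36.1 and 16.2, so it was low with GATA3 in the fully resistant library but 1.06-fold lower in the intermediate resistant than in the sensitive one. Whether counting used the strand is not given in the sources used here, so reads of such neighbours cannot be told apart where they overlap.

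Within a library, the share of GATA2 among the UMIs of both GATA genes does not depend on scaling between libraries. It was 62.5% (exact binomial 95% interval 62.2 to 62.9) of 69777 UMIs in the sensitive, 41.3% (41.0 to 41.7) of 75914 in the intermediate resistant and 43.4% (42.7 to 44.1) of 20786 in the fully resistant library. GATA2 was therefore the more abundant of the pair in the sensitive library and the less abundant in both resistant ones.

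The HAND genes, which specify sympathetic neurons and pair with E proteins, also separated. HAND1 (ENSG00000113196) had a CPM of 451 (447 to 456), 347 (343 to 350.3) and 131 (129 to 133) in sensitive, intermediate and fully resistant cells, and was 3.45-fold lower (3.38 to 3.52) in the last than in the first. HAND2 (ENSG00000164107) had a CPM of 370.4 (367 to 374), 417 (413 to 421) and 283 (279 to 286) in the same order, a difference of 1.31-fold lower (1.29 to 1.33) between the ends. HAND1 took 54.9% (54.6 to 55.3) of the UMIs of the pair in sensitive cells, 45.4% (45.0 to 45.7) in intermediate and 31.7% (31.2 to 32.1) in fully resistant cells, out of 78162, 78285 and 43884 UMIs. In contrast to the GATA pair, this share descended at both steps. HAND2-AS1, a noncoding RNA transcribed away from HAND2 on the opposite strand, followed HAND2 in the order of the libraries with a CPM of 289, 346 and 268.

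Members of the circuit are known to bind one another's control regions, so start regions were read. RefSeq promoter windows (GRCh38.p14, 250 bases before to 50 after a start, on the gene's strand) were matched by symbol for 8 of the 9 factors, not for TBX2, and gave 14 windows. They were searched on both strands for AGATAA, known from GATA factors, CATCTG, a HAND-type E-box, TAATTA, a homeodomain motif that reads alike on both strands, and GCCNNNGGC, an AP-2 motif, which stand in 10.3%, 14.7%, 4.84% and 23.2% of 35116 such windows. GCCNNNGGC was found in 6 windows, all of them of GATA2, GATA3 or HAND1, AGATAA in 2 (HAND2 and ISL1), TAATTA in 2 (HAND2 and LMO1) and CATCTG in 1 (TFAP2B). GATA3 alone had 6 of the 14 windows, not all of them with a match. The windows with GCCNNNGGC had 60.7% to 74.7% G and C letters, and the share over all windows was not adjusted for this. The windows of GATA2 and HAND1, the factors with the lowest ratios, and of HAND2, the steadier member of its pair, are printed with every match in capitals: 1 AP-2 match in the first GATA2 window at chr3:128493152-128493451 (minus strand), 2 in the second at chr3:128488481-128488780 (minus strand) and 2 in HAND1 at chr5:154478178-154478477 (minus strand), and a homeodomain and a GATA match that share 3 letters in HAND2 at chr4:173530180-173530479 (minus strand). A match is a description of letters, not a bound site.
GATA2 first start: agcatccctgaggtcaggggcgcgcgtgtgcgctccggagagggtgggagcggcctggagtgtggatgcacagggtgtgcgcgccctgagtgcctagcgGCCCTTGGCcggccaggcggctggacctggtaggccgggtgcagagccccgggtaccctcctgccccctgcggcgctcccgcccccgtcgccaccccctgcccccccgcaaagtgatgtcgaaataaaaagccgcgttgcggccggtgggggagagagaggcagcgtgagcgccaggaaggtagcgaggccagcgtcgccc
GATA2 second start: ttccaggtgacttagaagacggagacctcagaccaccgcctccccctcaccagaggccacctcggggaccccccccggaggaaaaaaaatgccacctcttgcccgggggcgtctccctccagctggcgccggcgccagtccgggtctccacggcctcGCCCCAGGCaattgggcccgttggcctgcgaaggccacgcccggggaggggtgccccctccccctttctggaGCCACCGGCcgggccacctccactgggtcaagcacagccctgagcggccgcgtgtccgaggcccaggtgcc
HAND1: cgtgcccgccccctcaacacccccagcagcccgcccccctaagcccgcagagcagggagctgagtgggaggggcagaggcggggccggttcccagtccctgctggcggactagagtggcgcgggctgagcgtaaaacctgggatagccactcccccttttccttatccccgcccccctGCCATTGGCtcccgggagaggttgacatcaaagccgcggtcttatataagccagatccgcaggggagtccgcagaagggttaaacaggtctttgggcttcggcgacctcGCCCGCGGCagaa
HAND2: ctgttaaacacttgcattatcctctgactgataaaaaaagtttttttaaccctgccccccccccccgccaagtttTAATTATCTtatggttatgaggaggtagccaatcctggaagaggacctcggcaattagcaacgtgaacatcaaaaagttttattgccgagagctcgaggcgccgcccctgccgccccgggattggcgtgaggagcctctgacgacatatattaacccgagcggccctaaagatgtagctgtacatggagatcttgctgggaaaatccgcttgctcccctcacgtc

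The homeodomain factors PHOX2A and ISL1 were, with HAND2, among the steadier members. PHOX2A (ENSG00000165462), a direct activator of DBH in sympathetic cells, had a CPM of 344 (341 to 348) in the sensitive, 444 (440.0 to 448) in the intermediate resistant and 296 (292 to 299) in the fully resistant library. It was the most abundant of the 9 in both resistant libraries, and was 1.16-fold lower (1.15 to 1.18) in fully resistant than in sensitive cells. ISL1 (ENSG00000016082), which sympathetic neurons need for survival and subtype, had a CPM of 85.9 (84.1 to 87.8), 78.8 (77.1 to 80.5) and 102 (100.3 to 104) in that order. ISL1 alone of the 9 had its highest level in the fully resistant library, 1.19-fold (1.16 to 1.22) the sensitive and 1.30-fold (1.26 to 1.34) the intermediate level, and under TMM scaling its log2 ratios of 0.25 and 0.38 were 0.16 and 0.23.

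TBX2 (ENSG00000121068), a T-box repressor that promotes proliferation in neuroblastoma, had a CPM of 106 (104 to 108) in the sensitive, 57.5 (56.0 to 59.0) in the intermediate and 46.8 (45.5 to 48.1) in the fully resistant library. Most of its difference thus lay at the first step, 1.85-fold lower (1.79 to 1.91), with 1.23-fold (1.18 to 1.28) at the second. TFAP2B (ENSG00000008196), an AP-2 factor of differentiating sympathetic cells, had a CPM of 105 (103 to 107), 168 (165 to 170.4) and 76.7 (75 to 78.4). Its intermediate level was 1.60-fold (1.56 to 1.64) the sensitive one and its fully resistant level 2.19-fold lower (2.13 to 2.25) than the intermediate one. LMO1 (ENSG00000166407), a neuroblastoma susceptibility gene, had a CPM of 80.3 (78.5 to 82.1), 106 (104 to 108) and 39.5 (38.3 to 40.7), or 2.03-fold lower (1.96 to 2.11) in fully resistant than in sensitive cells. LMO1 lies close to the limit of 2-fold, and leaving out cells with over 2 times the median UMI total moved its log2 ratio from -1.02 to -0.995, or 4 factors lower instead of 5.

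The order of the 9 factors was therefore rearranged. In the sensitive library it ran GATA2, HAND1, HAND2, PHOX2A, GATA3, TBX2, TFAP2B, ISL1 and LMO1, where the intervals of GATA2 and HAND1 and those of TBX2 and TFAP2B overlapped. In the intermediate resistant library it ran PHOX2A, GATA3, HAND2, HAND1, GATA2, TFAP2B, LMO1, ISL1 and TBX2, and in the fully resistant one PHOX2A, HAND2, HAND1, GATA3, ISL1, GATA2, TFAP2B, TBX2 and LMO1, with no overlap between neighbours in either. Across the libraries, 5 factors (PHOX2A, HAND2, GATA3, TFAP2B and LMO1) were highest in intermediate and lowest in fully resistant cells, an order held by 8.19% of the 9933 genes that reached a CPM of 5 in any library. HAND1, GATA2 and TBX2 were highest in sensitive and lowest in fully resistant cells (17.4% of genes), and ISL1 highest in fully and lowest in intermediate resistant cells (23.8%).

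To set each factor beside its chromosomal region, neighbouring genes were read. For each factor the 10 nearest measured genes on each side were taken, in the gene order of RefSeq on GRCh38.p14. Around GATA2 on chromosome 3, HAND1 on 5, and TBX2 on 17 the median log2 ratio of fully resistant over sensitive was 0.10, -0.08 and 0.21, against -2.43, -1.79 and -1.18 for the factors. Of the 20 neighbours each, 1, 1 and 2 were at least 2-fold lower and 9, 11 and 6 had a ratio below 1. Neighbours of LMO1 on chromosome 11 had a median of 0.93 in that comparison, with 19 of 20 higher and 7 at least 2-fold, while LMO1 itself stood at -1.02. In intermediate resistant over sensitive the same 20 genes had a median of 0.84 and LMO1 0.40. GATA3 on chromosome 10 showed the opposite arrangement: its neighbours had a median of -0.90 in intermediate resistant over sensitive, with 9 of 20 at least 2-fold lower, while GATA3 stood at 0.66. In fully resistant over sensitive GATA3, at -1.31, and its neighbours, at -0.74, were both low. Between the resistant libraries they parted: in fully over intermediate resistant GATA3 stood at -1.97 and its neighbours had a median of 0.15, with 1 of 20 at least 2-fold lower. For PHOX2A, HAND2, ISL1 and TFAP2B the neighbours' medians lay between -0.23 and -0.04 in both comparisons against the sensitive library.

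**Figure D2:**
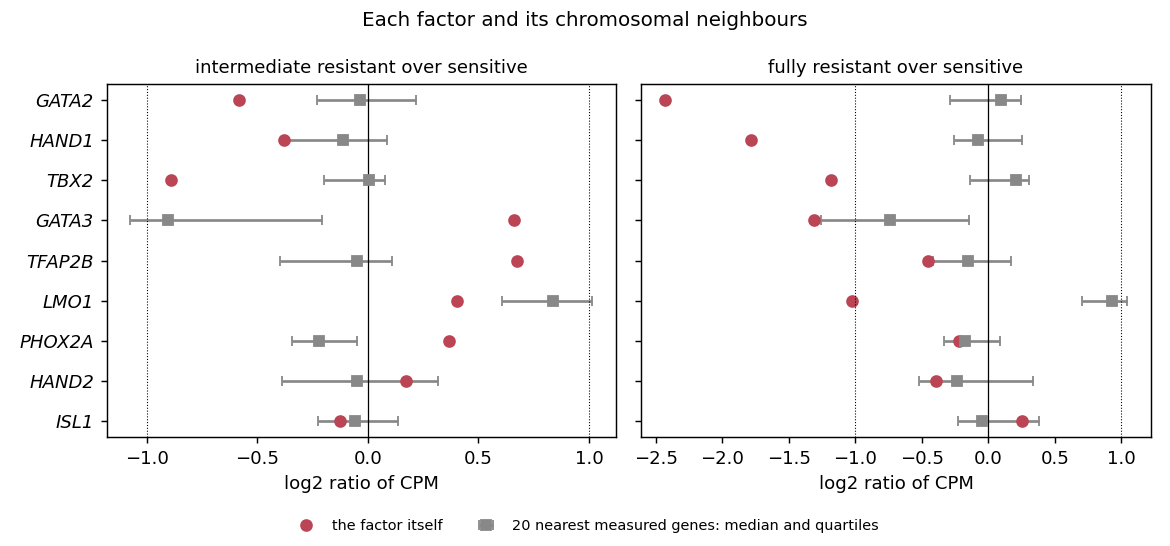
Log2 ratio of CPM (horizontal axis) of each factor (circles) and of its 20 nearest measured genes (squares, median with quartiles as bars), for intermediate resistant over sensitive (left) and fully resistant over sensitive (right); dotted lines mark 2-fold. LMO1, at -1.02 on the right, stands apart from neighbours at 0.93, and GATA3, at 0.66 on the left, from neighbours at -0.90.

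The LMO1 window at chr11:8268738-8269037 (minus strand, GRCh38.p14, RefSeq) is printed because LMO1 went against its neighbourhood, with its 2 TAATTA matches in capitals.
LMO1: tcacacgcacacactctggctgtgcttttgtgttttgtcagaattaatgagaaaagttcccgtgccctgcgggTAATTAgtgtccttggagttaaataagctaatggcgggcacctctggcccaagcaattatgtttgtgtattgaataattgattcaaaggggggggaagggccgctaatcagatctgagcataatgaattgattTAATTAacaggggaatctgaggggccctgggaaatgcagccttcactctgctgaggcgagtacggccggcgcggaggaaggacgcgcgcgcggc

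To see how the lower levels were spread over cells, 5000 UMIs were drawn at random from every cell, which left out none. Some GATA2 RNA was detected in 85.7% of cells in the sensitive (exact binomial 95% interval 84.7 to 86.6), 71.2% in the intermediate and 30.1% in the fully resistant library, and HAND1 in 86.2%, 75.3% and 37.2%. Without thinning GATA2 was seen in 98.0%, 93.0% and 56.2% and HAND1 in 98.1%, 95.6% and 63.0%. At full depth each of these RNAs was thus still seen in most fully resistant cells. For GATA3 the thinned shares were 72.7%, 85.5% and 40.1% and for PHOX2A 78.7%, 84.5% and 68.0%. HAND2 was found in 82.3%, 85.4% and 72.3% of thinned cells and ISL1 in 33.9%, 31.5% and 36.5%. The shares of TBX2 (38.1%, 23.4% and 19.5%), TFAP2B (38.9%, 50.4% and 26.7%) and LMO1 (32.0%, 39.2% and 16.5%) kept the order of their CPM. Since all cells are of 1 line, barcodes without a cell served as the background: among 50000 per library, ranked 10001 to 60000 by UMIs and with a median of 33 to 47 UMIs, GATA2 was seen in 1.44%, 1.26% and 0.302% and HAND1 in 2.02%, 2.03% and 0.760%. Such free RNA could carry a CPM of 0.181 of GATA2 and 0.456 of HAND1 in fully resistant cells, far under the 85.0 and 131 measured.

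For GATA2 and HAND1 the upper end of the distribution was lower as well. Cells with at least 3 GATA2 UMIs in 5000 made up 40.4%, 23.0% and 3.55% of the sensitive, intermediate and fully resistant library, and for HAND1 39.1%, 27.5% and 7.17%. ISL1 alone of the 9 had a higher such share in fully resistant than in sensitive cells, with 1.39%, 1.38% and 3.30%. At least 5 PHOX2A UMIs were seen in 5.30%, 11.7% and 5.97% of cells. At this depth the median cell carried RNA of 6 of the 9 factors in the sensitive and the intermediate resistant library and of 3 in the fully resistant one. At least 5 factors were detected in 77.2%, 76.8% and 25.4% of cells, and none in 1, 2 and 104 cells.

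**Figure D3:**
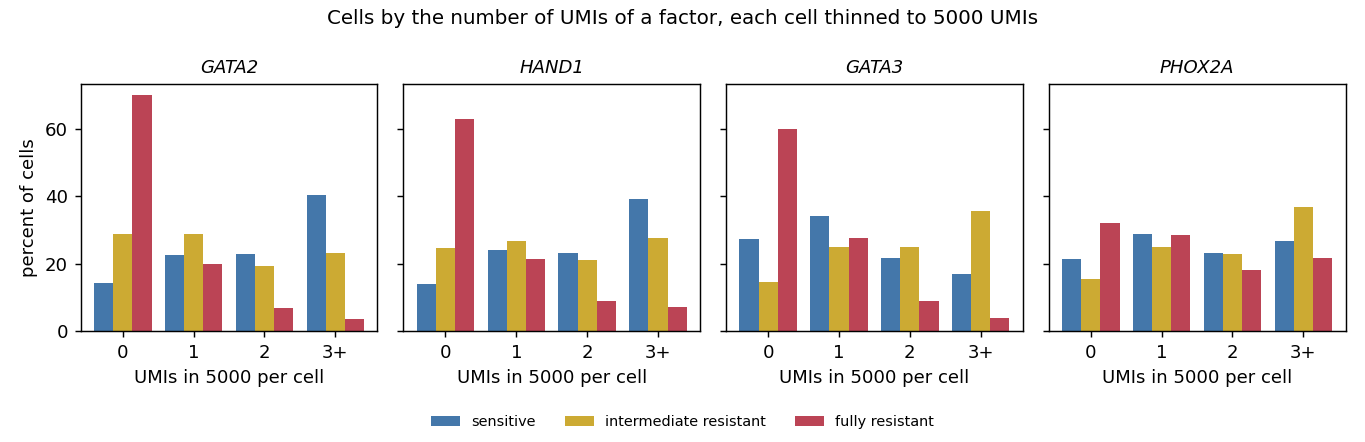
Percent of cells (vertical axis) with 0, 1, 2 or 3 and more UMIs (horizontal axis) of GATA2, HAND1, GATA3 and PHOX2A, after thinning each cell to 5000 UMIs, by library. In the fully resistant library 69.9% of cells had no GATA2 UMI and 62.8% no HAND1 UMI, whereas PHOX2A was missing from 32.0%.

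Several of these RNAs were also spread more unevenly over the fully resistant cells. The Fano factor, the variance of the thinned counts over their mean, is 1 for pure counting noise. For HAND1 it was 1.37 in the sensitive, 1.58 in the intermediate and 2.0 in the fully resistant library, where 99 of the 100 genes closest in mean lay below it and their median was 1.06. PHOX2A (1.33, 1.57 and 1.81) and TFAP2B (1.23, 1.42 and 1.54) followed the same order, and GATA2 (1.38, 1.57 and 1.59) differed little between the resistant libraries. HAND1 already lay above 89 and 92 of its 100 genes in sensitive and intermediate cells. Across the libraries PHOX2A lay above 92, 87 and 96, TFAP2B above 97, 96 and 98 and GATA2 above 91, 89 and 98. A spread above most genes of like mean was thus not particular to the fully resistant library. HAND2 was closer to genes of like mean, with 1.16, 1.25 and 1.32 across the libraries, above 67, 63 and 82 of its 100 genes. Summed over the circuit, the Fano factor was 1.58, 1.84 and 2.22.

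Correlation between members over cells was weak. Of the 36 pairs of factors, Pearson's r of log2(thinned count + 1) was at least 0.2 in 0 pairs of each library, and the highest were GATA2 with HAND1 in sensitive cells (0.15, 5415 cells) and intermediate cells (0.19, 6288 cells) and PHOX2A with TFAP2B in fully resistant cells (0.18, 6331 cells). These cells share 1 library each, counts are sparse and values this low carry little. Of all genes with a CPM of at least 50, those most like a factor were therefore named only at r of at least 0.2. In sensitive cells no gene reached it for any of the 9. In intermediate resistant cells ID3, which encodes an inhibitor of helix-loop-helix factors, reached 0.26 with HAND1 and 0.23 with GATA2. Fully resistant cells gave more: HAND1 with TH (0.29) and DBH (0.29), enzymes of catecholamine synthesis, and the growth factor gene IGF2 (0.27); TFAP2B with the chromaffin cell surface gene DLK1 (0.33), DBH (0.31) and IGF2 (0.30); and PHOX2A with DBH (0.24), the translation genes EEF1A1 (0.24) and RPL7A (0.23). These are the top 3 of each: of 2456 genes compared, 5 reached 0.2 with HAND1, 6 with TFAP2B and 16 with PHOX2A. With HAND2, GATA2, GATA3 and ISL1 0 genes reached it in this library, and TBX2 and LMO1 were under the minimum CPM there.

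In the fully resistant library most factors were lower in mitotic cells. Cells were ranked by their thinned UMIs of 12 mitotic genes, such as MKI67 and TOP2A, and the groups with most and with fewest, 1582 cells each in this library, were compared, which was added after other results were seen. These groups are ranges of a score and not cell types. They held at least 15 and at most 2 mitotic UMIs, with 121 and 543 cells exactly at these limits and a median of 17164 and 14885 UMIs per cell before thinning. HAND1 had 652 UMIs in the more and 1577 in the less mitotic group, a ratio of 0.413 (0.377 to 0.453), PHOX2A one of 0.529 (0.499 to 0.560), TFAP2B 0.524 (0.468 to 0.586), GATA2 0.609 (0.551 to 0.673) and LMO1 0.607 (0.512 to 0.718). The ratios of HAND2, GATA3 and ISL1 lay between 0.761 and 0.813 and that of TBX2 was 1.02 (0.886 to 1.18). In sensitive cells the same ratio was 1.01 (0.966 to 1.07) for HAND1 and 0.862 (0.814 to 0.912) for PHOX2A, and in intermediate resistant cells 0.995 and 0.921. In both of these libraries 4 factors were instead higher in the mitotic group, with intervals above 1: TBX2 at 1.26 (1.14 to 1.4) and 1.66 (1.45 to 1.90), GATA3 at 1.25 (1.17 to 1.33) and 1.24 (1.18 to 1.29), ISL1 at 1.28 (1.14 to 1.43) and 1.19 (1.06 to 1.33), and HAND2 at 1.21 (1.14 to 1.28) and 1.09 (1.04 to 1.15). GATA3, ISL1 and HAND2 thus lay above 1 in the sensitive and intermediate and below 1 in the fully resistant library. The groups were not alike between libraries. Their limits were at least 13 and at most 4 mitotic UMIs in sensitive cells and 11 and 2 in intermediate cells. The median mitotic UMIs were 18 and 2 in sensitive, 19 and 1 in intermediate and 27 and 1 in fully resistant cells. For the remaining factors the ratios in sensitive and intermediate cells were 0.926 and 1.05 for GATA2, 1.1 and 0.786 for TFAP2B and 1.01 and 1.13 for LMO1. MYCN, the amplified oncogene that acts with the circuit, went the other way, with 0.792 and 0.668 in sensitive and intermediate and 1.14 (1.09 to 1.19) in fully resistant cells. Intervals cover counting error only, and the cells of a group share a library. The Fano factor of each factor was above 1 in each library, so these intervals can be too narrow. For HAND2 in intermediate cells, with a lower end of 1.04, a ratio above 1 is therefore not secure. The ratio was computed only for the factors and MYCN. How many other genes differ as much between such groups was not tested, so these ratios have no background of all genes. The 12 mitotic genes had a summed CPM of 2010.1, 1908 and 2398 in the sensitive, intermediate and fully resistant library, and their part in the lower circuit level was not tested.

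**Figure D4:**
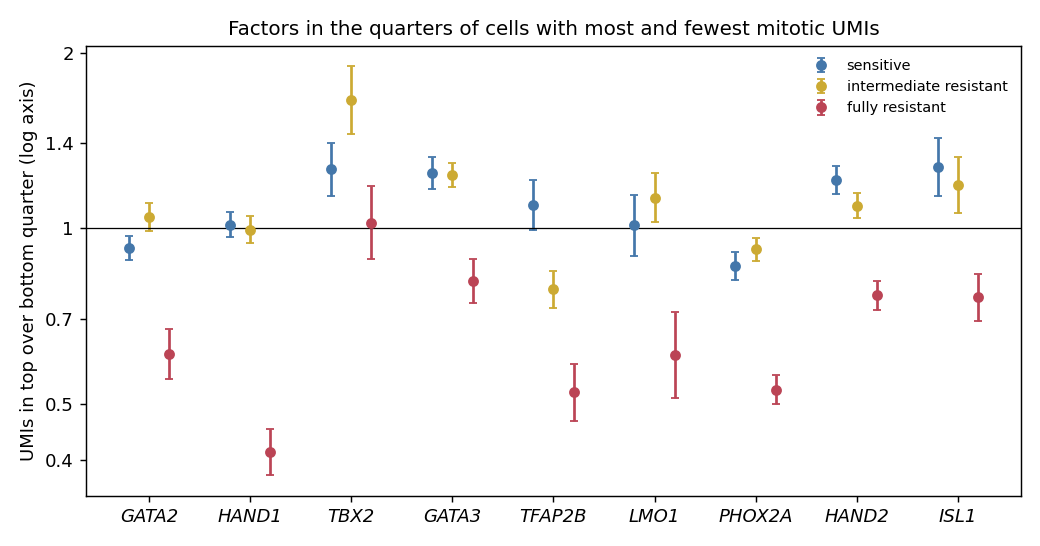
Ratio of UMIs (vertical log axis) in the cells with most over the cells with fewest mitotic UMIs (1353, 1572 and 1582 cells each in the sensitive, intermediate and fully resistant library), per factor and library, each cell thinned to 5000 UMIs, with exact conditional Poisson 95% intervals. Fully resistant cells lie between 0.413 (HAND1) and 1.02 (TBX2), while sensitive cells lie between 0.862 (PHOX2A) and 1.28 (ISL1).

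The lists of genes around the circuit held both higher and lower members. Over all measured genes, 6.73% were at least 2-fold higher and 7.33% lower in fully resistant over sensitive, with a median log2 ratio of 0.08. These shares were 2.38% and 4.81% in intermediate resistant over sensitive (median -0.08) and 5.71% and 3.91% in fully over intermediate resistant (median 0.15). MYCN had a CPM of 1242 in the sensitive, 413 in the intermediate and 446 in the fully resistant library, so its main difference lay at the first step, where the 9 factors summed to 2360 against 2277. Of 14 measured wider adrenergic factors, 3 were at least 2-fold higher in fully resistant than in sensitive cells (DACH1, INSM1 and EBF3) and 1, MYCN, was lower, with a median log2 ratio of 0.23. DACH1 had a CPM of 66.1 against 7.80 and EBF3 was 3.60-fold higher. In intermediate resistant over sensitive 2 of 13 were higher (EYA1 and SIX3) and 2 lower (MYCN and KLF7).

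Partners of the members were mostly level or lower against the sensitive library. Of 13 measured partner genes, 1 was at least 2-fold higher and 3 lower in fully resistant over sensitive, with a median log2 ratio of -0.20. Over all measured genes 6.73% were higher and 7.33% lower, with a median of 0.08. ID1, whose product withholds E proteins from HAND factors, had a CPM of 243 against 117, while its relative ID2 had 147 against 404. The other two lower genes were LDB2, which binds LIM factors, at 4.25 against 16.7, and the GATA cofactor ZFPM2, at 2.85 against 7.79. The E protein genes TCF3, TCF4 and TCF12 had log2 ratios of 0.17, -0.02 and -0.14. In intermediate resistant over sensitive 0 of 13 partners were at least 2-fold higher and 1 lower, with a median of -0.42. Between fully and intermediate resistant 1 of 11 was higher and 1 lower, with a median of 0.09 and 7 ratios above 1. Only 3 of 15 paralogs of the members were measured against the sensitive library: LMO4 had a CPM of 142, 98.9 and 319 across the libraries, TBX3 102, 113 and 60.9 and LMO3 9.79, 7.77 and 2.95. LMO4 was thus most abundant where LMO1 was least so.

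Known noradrenergic targets were divided. Of 16 measured, 5 were at least 2-fold higher (TH, GCH1, DBH, DDC and NPY) and 7 lower (SLC18A2, CYB561, RET, SLC6A2, ALK, CHGA and SLC18A1) in fully resistant over sensitive, with a median of -0.54. Over all measured genes 6.73% were higher and 7.33% lower, with a median of 0.08. In intermediate resistant over sensitive, 7 of 15 targets were higher and 2 lower, with a median of 0.87. Of all genes there, 2.38% were higher and 4.81% lower, with a median of -0.08. In fully over intermediate resistant, 1 of 16 targets was higher and 8 lower, with a median of -1.12. Of all genes in that comparison, 5.71% were higher and 3.91% lower, with a median of 0.15. TH had a CPM of 45.7, 292 and 238, DBH 153, 609 and 380.0 and the granule gene CHGA 705, 1287 and 214 across the libraries, each highest in intermediate resistant cells.

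Factors of the mesenchymal state were measured for 7 of 18 genes in fully resistant over sensitive, with 3 higher, among them SNAI2 and SIX4, and 1 lower (FOSL2). Over all measured genes 6.73% were higher and 7.33% lower. SNAI2, a repressor of epithelial genes, had a CPM of 0.536, 0.205 and 11.1 across the libraries and SIX4 was 8.55-fold higher in fully resistant than in sensitive cells, while PRRX1, which defines that state, had 2, 0 and 0 UMIs and TWIST1 a CPM of 65.0, 53.8 and 67.7. The lower adrenergic circuit thus stood beside higher SNAI2 and SIX4, with 0 UMIs of PRRX1 in the fully resistant library.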

How the data were processed

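RNA of Kelly cells was captured with the 10x Genomics 3' kit, version 2, per the labels' protocols. The authors deposited UMI counts per gene and barcode for 32738 genes and 737280 barcodes, with no normalization and no barcode filter. Per the submitters' processing notes, bcl2fastq, Cell Ranger and the genome build hg19 were used, with no versions given. The number of per-sample columns left unused was 0. Groups came from the response in the labels.

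Cells had at least 5000 UMIs, at least 500 genes and at most 20% mitochondrially encoded UMIs, and the last rule removed 0, 4 and 2 barcodes. Doublets were kept, and no doublet caller was run. UMIs were summed over cells and divided by the library total (CPM). Ratios carry exact conditional Poisson 95% intervals and shares exact Clopper-Pearson 95% intervals, all for counting error only. A gene with 0 UMIs in 1 library was set to 3. The members and lists were chosen with earlier results of these data known. Named genes were the 9 factors and MYCN, up to 4 genes per list with the greatest ratio at a CPM of at least 20, and up to 3 genes per factor by correlation; other list genes (EBF3, INSM1, E proteins, LDB2, ZFPM2, LMO3, GCH1, DDC, NPY, ALK, SLC18A1, SNAI2, SIX4, FOSL2 and PRRX1) and both antisense RNAs were named after their values were seen. Some genes of the lists are not reported here. Ratio and per-cell calculations were tested on simulated data. Scaling alternatives used TMM (edgeR 4.0.16) and median-of-ratios size factors (DESeq2 1.42.0). Other work used Python 3.11.15, numpy 2.4.6 and scipy 1.17.1.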

Additional observations from a re-analysis of the deposited data

How the results depend on the processing

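Member counts were recomputed under 10 alternatives: 3 scalings, 2 cell rules, leaving out cells above 2 times the median UMI total, subtracting free RNA, a CPM minimum of 20 or none, and a ratio of at least 1.5. Of 60 recomputed counts of factors, 58 stayed within 1.5 times the reported one. The other 2 came from the ratio of at least 1.5, which gave 2 factors higher and 1 lower in intermediate resistant over sensitive, where the ratio of at least 2 gave 0 and 0, a result of the lower limit itself. The CPM minimum of 20 or none could not change a count, since every factor had a CPM of at least 39.5 in each library. A reported count of 0 was within the limit only if it stayed 0. Of 18 recomputed shares within a pair, 17 stayed inside the reported interval, and the share of HAND1 in sensitive cells became 55.6% without cells above 2 times the median UMI total; the cause was not tested. Log2 ratios of the factors and MYCN moved by at most 0.14 over 210 recomputations. Only MYCN between the resistant libraries changed sign, at -0.03 under TMM scaling and -0.00 without mitochondrially encoded and ribosomal protein genes, from 0.11, and the cause was not tested. Over all genes, counts at least 2-fold higher and lower in fully resistant over sensitive were 660 and 718, against 292 and 297 at a CPM minimum of 20, 3989 and 3739 with none, and 1486 and 1441 at a ratio of 1.5. The same settings gave 88 and 182, 3036 and 3134, and 556 and 1159 for intermediate resistant over sensitive (227 and 458 as reported), and 234 and 146, 3377 and 3319, and 1330 and 782 for fully over intermediate resistant (549 and 376 as reported). Shares of cells with a UMI depend on depth by construction, and all 54 moved with thinning to 9500 UMIs or none. No paired analysis was possible because each group has 1 library. With 1 library per group, no replicate could be left out, and counting depth does not limit these 9 genes, which had at least 4196 UMIs in each library.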
